A study of Mus musculus with 8 samples.

Results

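Wnt ligands and the secreted proteins that bind them or their receptors were examined as a group of 10 genes in primary mouse peritoneal mesothelial cells (MCs), chosen by gene symbol out of the 13687 genes of the expression table. The group holds 5 ligands (Wnt2b, Wnt4, Wnt5a, Wnt5b and Wnt9a), 4 secreted inhibitors (Sfrp1, Sfrp2, Dkk2 and Dkk3) and Axin2, an intracellular member that serves as a common readout of the pathway. All 10 symbols were present and all 10 passed the filter on low values. Donor animals were B6.Cg-CAV1tm1mls/J mice, which lack the caveolar coat protein caveolin-1 in every cell and are written CAV1-/- here, and littermates with the intact gene (WT), and the MCs were released from the parietal peritoneum with trypsin. Cells were grown to confluence and then kept under static conditions or mechanically stretched for 24 h before RNA was taken. Each of 2 WT and 2 CAV1-/- animals gave 1 static and 1 stretched culture, so that 8 RNAseq libraries form 4 groups of 2 cultures, named WT static, WT stretch, CAV1-/- static and CAV1-/- stretch. The ages of the animals were not given in the sources used here. Replicate 1 and replicate 2 denote the same animal in the static and the stretched group of a genotype, and different animals in different genotypes.

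Wnt proteins are lipid-modified secreted ligands that need Porcn for their acylation and Wls for their release. They bind Frizzled receptors, and in the canonical branch Lrp5 or Lrp6 as co-receptor, which stabilises beta-catenin and lets it act with TCF/LEF factors on target genes such as Axin2, a negative feedback component of the beta-catenin destruction complex. Secreted Frizzled-related proteins (Sfrp) bind Wnt ligands or Frizzled receptors outside the cell, and Dickkopf proteins (Dkk) such as Dkk2 act on Lrp5 and Lrp6. Wnt5a and Wnt5b are best known for branches that do not pass through beta-catenin, and the mesothelium expresses Wnt ligands during organ development.

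Values are reads per gene normalized by the trimmed mean of M values (TMM) and given as counts per 1e6 reads (TMM-normalized CPM). Libraries held between 9777738 and 21203938 reads, and stretched cultures were sequenced more deeply (at least 15861571 reads) than static ones (at most 14237503). A gene with 3 reads, taken here as the smallest detectable amount, has a value between 0.146 and 0.308 depending on the library. Cav1, the targeted gene, was at 247 to 764 in the 4 WT libraries and at 12.8 to 34.5 in the 4 CAV1-/- libraries. The summed value of 12 mesothelial markers with values (of 13 listed) was 3115 to 4115 in WT and 924 to 1177 in CAV1-/- libraries. For 10 of the 12, both CAV1-/- values lay below both WT values under static conditions, and for 10 on stretch (20.8% and 15.9% of all genes). Wt1 and Krt19 overlapped between genotypes. Wt1 was at 94.9 to 133 in WT and 74.9 to 138 in CAV1-/-, and Krt19 at 21.7 to 65.9 and 2.67 to 69.4. Markers of other cells differed between animals: 10 leukocyte markers summed to 4685 and 4735 in both cultures of CAV1-/- replicate 1, against 72.1 to 453 in the other 6 libraries, while 9 fibroblast markers summed to 257 and 354 in that animal and to 1579 and 1847 in the other CAV1-/- animal. Adgre1 and Cx3cr1, also on the leukocyte list, had no values in the table. In bulk RNA, fewer cells of a type and less RNA per cell cannot be told apart.

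In transcripts averaged over the 8 libraries, Wnt5a stood highest among the 5 ligands and Sfrp1 among the 4 inhibitors of the group. Within a library Wnt5a was the highest ligand in 6 of 8, the exceptions being both cultures of WT replicate 1, and Sfrp1 was the highest inhibitor in 5 of 8, the exceptions being the static culture of WT replicate 1 and both cultures of CAV1-/- replicate 1. On a scale of TMM-normalized CPM per kilobase of exon, which allows levels of different genes to be compared, the means over the 8 libraries were 24.5 for Sfrp1, 13.4 for Wnt5a, 6.12 for Dkk3, 5.61 for Wnt9a, 4.67 for Sfrp2, 3.22 for Wnt2b, 2.19 for Wnt5b, 1.83 for Wnt4, 0.287 for Dkk2 and 0.249 for Axin2. Wnt5a was above Dkk3, the next in this order, in all 8 libraries. The other neighbours overlapped in their ranges: Sfrp1 was above Wnt5a in 5 of 8 libraries, Dkk3 above Wnt9a in 5, Wnt9a above Sfrp2 in 5, Sfrp2 above Wnt2b in 4, Wnt2b above Wnt5b in 4, Wnt5b above Wnt4 in 6, Wnt4 above Dkk2 in 7 and Dkk2 above Axin2 in 4.

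The ligand mixture was steadier than the inhibitor mixture. Summed per kilobase, the 5 ligands lay between 20.3 and 40.8 in the 8 libraries, and Wnt5a made up 34.6% to 65.8% of that sum. In both cultures of WT replicate 1 Wnt9a stood above it, at 9.04 against 8.26 per kilobase in the static and 10.8 against 9.74 in the stretched culture. The next ligand after Wnt5a was Wnt9a in both cultures of WT replicate 2, Wnt2b in both of CAV1-/- replicate 1 and Wnt4 in both of CAV1-/- replicate 2. The 4 inhibitors summed per kilobase to 25.6 and 72.1 in WT static, 10.2 and 36.1 in WT stretch, 6.04 and 78.5 in CAV1-/- static, and 6.23 and 50.1 in CAV1-/- stretch cultures. Sfrp1 accounted for 34.6% to 62.7% of the inhibitor sum in WT, for 90.5% and 87.6% in CAV1-/- replicate 2, and for 4.06% and 3.92% in CAV1-/- replicate 1, where Dkk3 accounted for 90.2% and 83.7%. In the static culture of WT replicate 1, Sfrp2 was the highest inhibitor at 9.06 per kilobase against 8.86 for Sfrp1. The ratio of the inhibitor sum to the ligand sum therefore ran from 0.153 in the stretched culture of CAV1-/- replicate 1 to 3.87 in the static culture of CAV1-/- replicate 2. It was lower in the stretched than in the static culture of every animal, at 0.362 against 1.13 and 1.53 against 2.79 in the WT animals and at 0.153 against 0.287 and 1.84 against 3.87 in the CAV1-/- animals. With 4 pairs, an exact two-sided permutation test cannot go below p = 0.125. The ratio covers only the 4 inhibitors of the group and leaves out Frzb and Cthrc1. Per kilobase, Cthrc1 went on stretch from 6.59 to 33.9 and from 14.4 to 22.4 in the WT animals. In the CAV1-/- animals it went from 19.3 to 31.2 and from 26.6 to 52.6. Frzb was at 0.0899 to 1.49 in the 8 libraries. With both counted over the same 5 ligands, the ratio was higher on stretch than under static conditions in WT replicate 1. There Cthrc1 rose by more than the 4 inhibitors fell, while the ligand sum went from 22.6 to 28.2 per kilobase. The lower ratio in every animal thus holds for the 4 inhibitors of the group only.

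**Figure D1:**
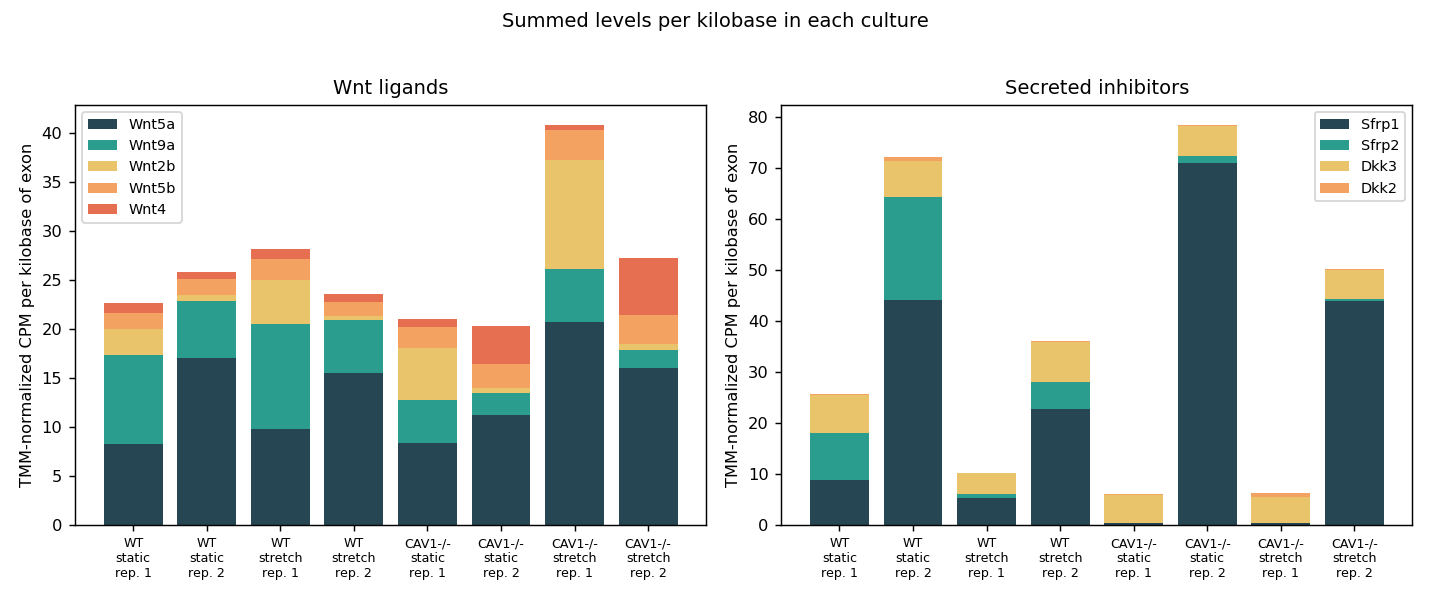
Stacked bars of TMM-normalized CPM per kilobase of exon (vertical axis, from 0) in each of the 8 cultures, with the 5 Wnt ligands on the left and the 4 secreted inhibitors on the right; each culture is 1 bar and has no error bar. The ligand bars lie between 20.3 and 40.8, while the inhibitor bars run from 6.04 to 78.5 and are low in both cultures of CAV1-/- replicate 1, where Sfrp1 is nearly missing.

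The comparisons asked whether MCs of the 2 genotypes differed under static conditions and on stretch, whether stretching changed each gene in WT and in CAV1-/- MCs, and whether the response to stretch depended on the genotype. The test was that of limma, fitted to log2(value + 1) of all 8 libraries and adjusted over 13665 genes by Benjamini-Hochberg, and on this scale the fold changes of low genes are understated. Between genotypes, with 2 cultures against 2, an exact two-sided permutation test of 1 gene cannot go below p = 0.333. Static and stretched cultures are pairs from the same animals. The main limma fit, edgeR and DESeq2 had no term for the animal, so that differences between animals entered the error of the stretch comparisons. At an adjusted p under 0.05, 0 of the 10 genes were called in any of the 6 comparisons by limma, and edgeR and DESeq2 on the recovered reads also called 0. The background was low as well: limma called 0% of all genes for stretch in WT, 0% for stretch in CAV1-/-, 0% for the mean of both, 0% for the interaction, 0.0732% between genotypes under static conditions and 0.0585% on stretch. At an unadjusted p under 0.05, Sfrp2 passed for stretch in WT (2.27% of all genes did) and for genotype under static conditions (8.17%), and Wnt5b passed for genotype on stretch (6.26%). None of the 10 passed that level for stretch in CAV1-/- (2.09%), for the mean stretch effect (4.73%) or for the interaction (0.483%).

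Direction can be counted without a test. Between genotypes under static conditions the 2 CAV1-/- values lay below both WT values for Sfrp2, Wnt9a and Dkk3 (20.8% of all genes) and above them for Wnt5b (16.1%). On stretch they lay below for Sfrp2 (15.9%) and above for Wnt5a and Wnt5b (14.6%). Both WT animals had more Wnt4 and Axin2 on stretch (28.7% of all genes) and less Sfrp1 and Sfrp2 (33.9%). Both CAV1-/- animals had more Wnt2b, Wnt5a and Wnt5b on stretch (30.0%) and less Sfrp1 and Dkk3 (30.9%). Over all 4 animals, 0 of the 10 were higher in every one (14.5% of all genes) and only Sfrp1 was lower in every one (16.9%). The counts take the sign alone, also where a difference is within counting error. In CAV1-/- replicate 1, for example, Sfrp1 was at 1.071 in the static and 1.067 in the stretched culture. Read against those shares, none of these counts sets the 10 genes apart. The median log2 fold change of the 10 was -0.22 for genotype under static conditions, 0.38 for genotype on stretch, 0.057 for stretch in WT and 0.12 for stretch in CAV1-/-, where the median of all genes was between -0.017 and 0.

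**Figure D2:**
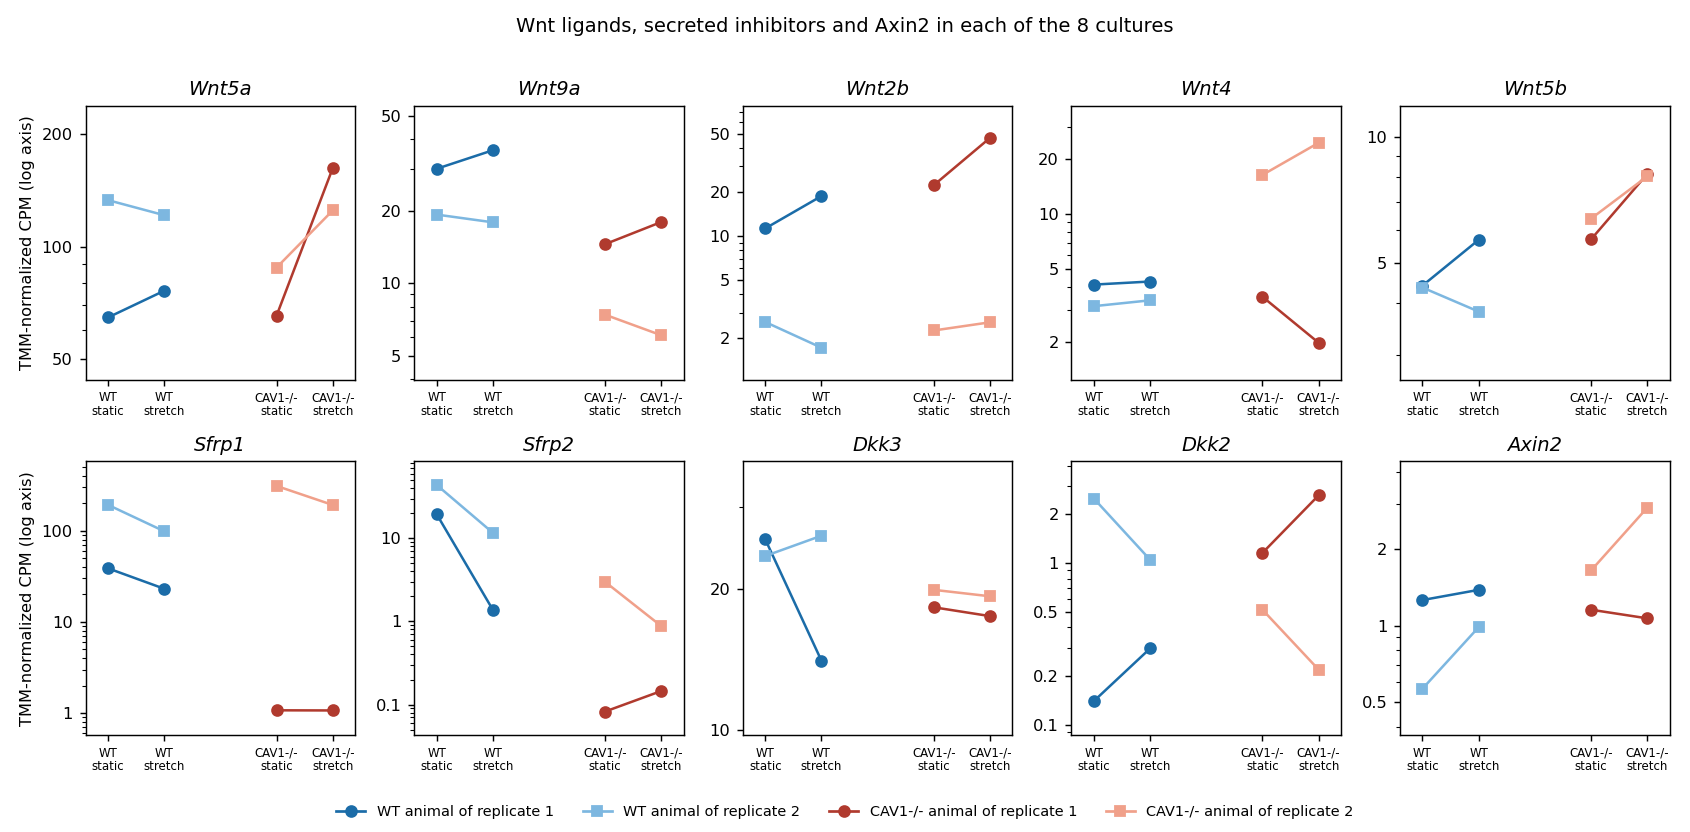
TMM-normalized CPM (vertical log axis, scaled for each gene) of the 10 genes in WT static, WT stretch, CAV1-/- static and CAV1-/- stretch cultures; each point is 1 culture, and a line joins the static and the stretched culture of 1 animal. The animals differ more than the conditions for Sfrp1, Wnt2b and Wnt4, while Sfrp2 is below both WT animals in both CAV1-/- animals at each condition.

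**Figure D3:**
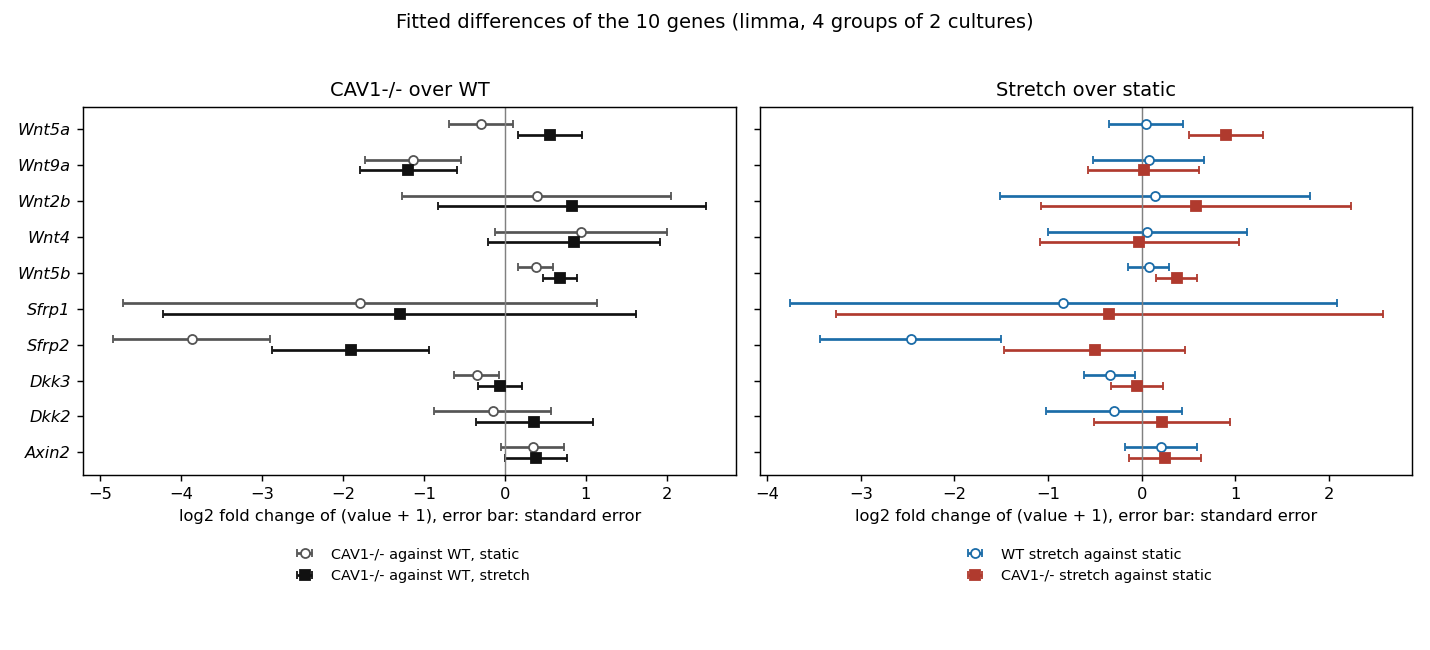
Log2 fold changes on the log2(value + 1) scale (horizontal axis) with their standard errors from limma (bars), for CAV1-/- over WT on the left and stretch over static on the right, with 2 cultures per group. Sfrp2 lies at -3.87 and -1.90 for genotype and at -2.47 for stretch in WT, and the widest bars, with a standard error of 2.92, belong to Sfrp1.

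Wnt5a, the most abundant ligand on average, was higher on stretch in both CAV1-/- animals and differed in direction between the WT animals. The gene lies on chromosome 14 (28504750 to 28527448, plus strand; GRCm38 and GENCODE M21 for this and all other positions). Its values were 64.6 and 133 in WT static, 76.2 and 121 in WT stretch, 65.4 and 87.9 in CAV1-/- static, and 162 and 125 in CAV1-/- stretch cultures. Both stretched CAV1-/- cultures were above both static ones and above the WT stretched cultures, while the WT groups overlapped. Within an animal, stretch over static was 1.18 and 0.911 in WT and 2.48 and 1.42 in CAV1-/-. On stretch the fitted log2 fold change was 0.90 ± 0.40 (SE) in CAV1-/- (limma adjusted p = 1.00, unadjusted p = 0.0627) and 0.051 ± 0.40 in WT. The difference between the genotypes' responses was 0.85 (95% interval -0.51 to 2.22), which did not pass the test. Wnt5a shares 358 exon bases with Gm2670, an antisense gene on the other strand, and the library kit named does not mark strand, so that reads of both genes there cannot be told apart.

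Wnt5b, the close relative of Wnt5a, was the ligand that separated the genotypes most evenly. It lies on chromosome 6 (119432531 to 119544347, minus strand). Values were 4.41 and 4.36 in WT static, 5.67 and 3.82 in WT stretch, 5.69 and 6.37 in CAV1-/- static, and 8.15 and 8.04 in CAV1-/- stretch cultures. All 4 CAV1-/- cultures were above all 4 WT cultures, the nearest being 5.69 against 5.67. The share of all genes separated in this way was not counted. The mean was 1.38-fold higher in CAV1-/- than in WT under static conditions and 1.71-fold higher on stretch. Fitted log2 fold changes were 0.38 ± 0.21 (limma adjusted p = 0.768) under static conditions and 0.68 ± 0.21 on stretch (adjusted p = 0.595, unadjusted p = 0.0188, 95% interval 0.16 to 1.21). On stretch Wnt5b stood at 1.43 and 1.26 times its static level in the CAV1-/- animals, with counting intervals of 1.08 to 1.93 and 0.932 to 1.73, and at 1.29 and 0.876 times in the WT animals. These ratios rest on 54 to 168 reads per library.

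The 250 bases upstream of the outermost RefSeq start of Wnt5b are shown because they held 1 of the only 2 motif matches among the promoters searched. RefSeq promoter sequences (GRCm38.p6) were at hand for 7 of the 10 genes, in 9 windows of 250 bases. Sfrp1, Wnt5a and Dkk3 had none. Both strands were searched for CTTTGAA or CTTTGAT (TCF/LEF), GGAATG (TEAD) and TGANTCA (AP-1). Over 12682 windows of the same length from 9894 genes, 5.24%, 10.9% and 4.79% held them. The window below lies at chr6:119544348-119544597 and is written 5′ to 3′ on the minus strand, with an AP-1 match in capitals 191 to 185 bases before the start.
Wnt5b: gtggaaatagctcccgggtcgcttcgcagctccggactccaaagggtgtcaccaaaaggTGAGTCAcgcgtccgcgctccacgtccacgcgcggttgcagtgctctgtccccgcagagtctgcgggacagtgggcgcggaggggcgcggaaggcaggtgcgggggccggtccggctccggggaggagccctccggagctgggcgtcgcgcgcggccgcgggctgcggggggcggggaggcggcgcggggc
A TCF/LEF match, CTTTGAT, lay 71 to 65 bases before a second, inner start of Wnt5b on the same strand. The windows of Axin2, Dkk2, Sfrp2, Wnt2b, Wnt4 and Wnt9a held none of the 3 motifs, which says only that these letters were not found there. Of the 250 bases, 212 in the Wnt2b window and 146 in the Wnt4 window lie in annotated exons of the same gene. A match is a run of letters and not a measured site.

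Wnt9a, a ligand known from joint and skeletal development, was lower in CAV1-/- MCs in the means of both conditions. The gene is on chromosome 11 (59306928 to 59333552, plus strand). Values were 30.1 and 19.4 in WT static, 35.9 and 18.0 in WT stretch, 14.6 and 7.40 in CAV1-/- static, and 18.0 and 6.07 in CAV1-/- stretch cultures. Under static conditions both CAV1-/- cultures were below both WT cultures, while on stretch CAV1-/- replicate 1 reached the level of WT replicate 2. The WT mean was 2.25-fold the CAV1-/- mean in static and 2.24-fold in stretched cultures, where it became 4.44-fold without CAV1-/- replicate 1 and 1.49-fold without CAV1-/- replicate 2 or WT replicate 1. On the log2 scale the difference was -1.14 ± 0.59 (limma adjusted p = 0.733) and -1.19 ± 0.59 (adjusted p = 0.887), and its 95% intervals reached from -2.58 to 0.31 and from -2.64 to 0.26. Stretch over static was 1.19 and 0.928 in the WT and 1.24 and 0.821 in the CAV1-/- animals, so that 1 animal of each genotype went each way.

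Wnt2b and Wnt4 differed more between animals than between conditions. Wnt2b, a ligand of the canonical branch on chromosome 3 (104945272 to 104961921, minus strand), was at 11.3 and 2.58 in WT static, 18.7 and 1.72 in WT stretch, 22.3 and 2.26 in CAV1-/- static, and 46.8 and 2.57 in CAV1-/- stretch cultures. In each genotype replicate 1 was the high animal, by 4.36- and 10.9-fold in WT and by 9.84- and 18.2-fold in CAV1-/- cultures. Replicate 1 also had more Wnt2b on stretch in both genotypes, 1.66-fold in WT (counting interval 1.38 to 2.01) and 2.10-fold in CAV1-/- (1.84 to 2.42). In the low animals the ratios were 0.668 and 1.14, on 22 to 47 reads per library. With a standard error of 1.66 on the log2 scale, the genotype difference of Wnt2b was 0.39 in static and 0.83 in stretched cultures (limma adjusted p = 0.986 and 1.00).

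Wnt4, a ligand with roles in kidney and gonad development, stood out in a single animal. It lies on chromosome 4 (137277489 to 137299726, plus strand), and its values were 4.13 and 3.15 in WT static, 4.29 and 3.39 in WT stretch, 3.54 and 16.3 in CAV1-/- static, and 1.99 and 24.5 in CAV1-/- stretch cultures. CAV1-/- replicate 2 was above the other 6 libraries under both conditions, whereas CAV1-/- replicate 1 was within or below the WT range. Between the 2 CAV1-/- animals the ratio was 4.61 in static and 12.3 in stretched cultures. The log2 fold change between genotypes, 0.94 ± 1.06 under static conditions and 0.86 ± 1.06 on stretch, rested on that animal. Without its static or its stretched culture the difference at that condition became -0.022 and -0.69.

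Sfrp1, the most abundant inhibitor on average, was nearly missing from both cultures of 1 CAV1-/- animal and lower on stretch in the 3 animals that had it. The gene is on chromosome 8 (23411502 to 23449632, plus strand). Values were 38.8 and 193 in WT static, 23.1 and 98.9 in WT stretch, 1.07 and 311 in CAV1-/- static, and 1.07 and 192 in CAV1-/- stretch cultures. CAV1-/- replicate 1 held 13 and 22 reads in its static and stretched library, while the other 6 libraries held 469 to 3509. On the log2(value + 1) scale the 2 CAV1-/- animals were 7.23 apart in static and 6.54 apart in stretched cultures. No other gene of the 13665 tested differed that far in both conditions between those animals. The 2 WT animals were 2.28 and 2.05 apart, a distance that 94 genes (0.688%) reached in both conditions.

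On stretch Sfrp1 stood at 0.597 and 0.513 times its static level in the WT animals, with counting intervals of 0.527 to 0.676 and 0.481 to 0.547. In CAV1-/- it stood at 0.618 times in replicate 2 (0.589 to 0.649) and at 0.996 times in replicate 1, where the interval of 0.480 to 2.15 left the change undetectable at that depth. The mean log2 difference over both genotypes was -0.59 ± 2.07 (limma adjusted p = 0.999), and with the animal as a block the standard error became 0.12 and the adjusted p 0.0726. The sign of the genotype difference depended on the scale, since the fitted log2 fold change was -1.79 under static conditions and -1.30 on stretch while the mean values were 1.35- and 1.58-fold higher in CAV1-/-, and without CAV1-/- replicate 2 the WT means were 108- and 57.1-fold the CAV1-/- values. Both edgeR and DESeq2 also gave a positive sign.

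Marker sums moved with these animals. The fibroblast marker sum was 955 and 2029 in WT static, 502 and 1919 in WT stretch, 354 and 1847 in CAV1-/- static, and 257 and 1579 in CAV1-/- stretch cultures, with replicate 2 above replicate 1 throughout as for Sfrp1. Within that list Cd34 went the other way in WT, at 46.9 and 24.5 in static and 38.0 and 18.0 in stretched cultures. The leukocyte sum was 435 and 72.1, 453 and 75.8, 4685 and 293, and 4735 and 326 in the same order, with replicate 1 above replicate 2 throughout as for Wnt2b. The 4 markers of smooth muscle and pericytes with values (of 5) summed to 643 and 208, 602 and 235, 1212 and 381, and 977 and 409 in the same order. Replicate 1 was above replicate 2 there too, as for Wnt2b. Within that list Cspg4 went the other way in WT, at 5.32 and 39.3 in static and 7.15 and 74.2 in stretched cultures. The 4 endothelial markers with values (of 6) summed to 12.1 to 68.1. Sfrp2 was also higher in replicate 2 of every group, as the fibroblast sum was, though CAV1-/- replicate 1 held at most 3 reads of it. The part of such cells in the values of Sfrp1, Sfrp2, Wnt2b and Wnt4 was not tested.

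**Figure D4:**
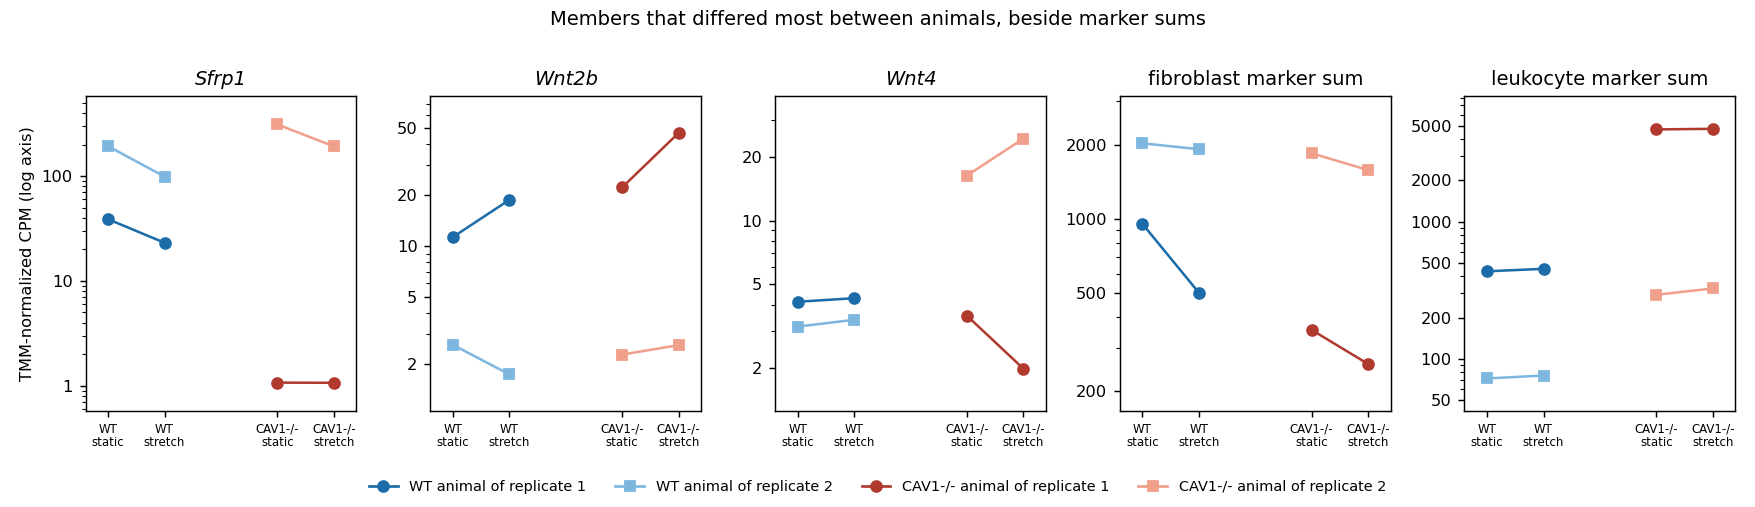
TMM-normalized CPM (vertical log axis, scaled for each panel) of Sfrp1, Wnt2b and Wnt4 and the summed values of 9 fibroblast and 10 leukocyte markers, in the 8 cultures; each point is 1 culture and a line joins both cultures of 1 animal. Sfrp1 and the fibroblast sum are higher in replicate 2 of each genotype, and Wnt2b and the leukocyte sum are higher in replicate 1.

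Sfrp2, a relative of Sfrp1 that also binds Wnt proteins, had the largest fitted differences of the 10 genes between genotypes and on stretch in WT. Of the 10 it had the lowest unadjusted p. It lies on chromosome 3 (83766321 to 83774316, plus strand). Values were 19.5 and 43.8 in WT static, 1.38 and 11.6 in WT stretch, 0.0824 and 2.98 in CAV1-/- static, and 0.146 and 0.876 in CAV1-/- stretch cultures. Behind these stood 279 and 543, 28 and 189, 1 and 29, and 3 and 16 reads. Every CAV1-/- culture was below both WT cultures of its condition, and both libraries of CAV1-/- replicate 1 were at or under the floor of 3 reads.

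Under static conditions the WT mean of Sfrp2 was 31.7 ± 17.2 (SD, n = 2 cultures) and the CAV1-/- mean 1.53 ± 2.05 (SD, n = 2), a 20.7-fold difference. On stretch the means were 6.51 ± 7.26 and 0.511 ± 0.516, a 12.8-fold difference. Single libraries decided the size of these folds. The static one was 10.6 without CAV1-/- replicate 1, 12.7 without WT replicate 2 and 28.6 without WT replicate 1, and the stretched one was 7.44, 2.70 and 22.8 without the same animals. Without CAV1-/- replicate 2 the remaining CAV1-/- library held 1 read in static and 3 in stretched cultures, and no fold is given. The log2 fold change was -3.87 ± 0.97 in static cultures (limma adjusted p = 0.291, unadjusted p = 0.0069, 95% interval -6.23 to -1.51) and -1.90 ± 0.97 in stretched cultures (adjusted p = 0.894, 95% interval -4.26 to 0.46). DESeq2 gave an adjusted p of 0.0679 and edgeR one of 0.567 for the static comparison. In the same comparison the mesothelial marker sum was 3953 and 4115 in WT and 1135 and 1177 in CAV1-/- cultures, and the part of that difference in the level of Sfrp2 was not tested.

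On stretch Sfrp2 stood at 0.0707 and 0.266 times its static level in the WT animals, with counting intervals of 0.0462 to 0.104 and 0.224 to 0.314. In CAV1-/- replicate 2 the ratio was 0.294 (0.149 to 0.559), and in replicate 1, on 3 against 1 reads, it was 1.77 (0.142 to 92.7) and thus undetermined. The log2 fold change in WT was -2.47 ± 0.97 (limma adjusted p = 1.00, unadjusted p = 0.0430), and with the animal as a block its adjusted p was 0.144. Over both genotypes the mean log2 difference was -1.48 ± 0.68 (adjusted p = 0.984, or 0.0607 with the animal as a block). The responses of the 2 genotypes differed by 1.96 (95% interval -1.37 to 5.30), a difference that the low values in CAV1-/- limit, because the pseudocount of 1 exceeds most of them.

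The promoter of Sfrp2 is shown as that of the gene with the largest fitted genotype difference. The window lies at chr3:83766071-83766320 on the plus strand, holds no GENCODE exon and has a GC content of 63.6%, against a median of 59.6% over all windows. With no match to the 3 motifs, it has no capitals.
Sfrp2: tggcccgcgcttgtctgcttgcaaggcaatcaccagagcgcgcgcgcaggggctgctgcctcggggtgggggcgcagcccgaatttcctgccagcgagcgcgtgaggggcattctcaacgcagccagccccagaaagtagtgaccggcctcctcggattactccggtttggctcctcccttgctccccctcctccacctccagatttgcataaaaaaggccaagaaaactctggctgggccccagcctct
In the exons of Sfrp2, 347 bases are shared with Gm26771, an antisense gene on the other strand, whose reads cannot be told apart in a library that does not mark strand.

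Dkk3, a divergent Dickkopf protein, had the narrowest range of the 10. It lies on chromosome 7 (112116017 to 112159057, minus strand). Values were 25.6 and 23.6 in WT static, 14.1 and 26.1 in WT stretch, 18.3 and 19.9 in CAV1-/- static, and 17.5 and 19.3 in CAV1-/- stretch cultures. A single culture, WT stretch replicate 1, was low at 0.549 times its static level (counting interval 0.469 to 0.643), and the other 3 animals stood at 0.957 to 1.11 times. Under static conditions both CAV1-/- cultures were below both WT cultures, with means of 19.1 ± 1.17 and 24.6 ± 1.43 (SD, n = 2 each). Their log2 fold change was -0.35 ± 0.28 (limma adjusted p = 0.845), with a 95% interval of -1.02 to 0.32.

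Dkk2 was close to the limit of detection. It lies on chromosome 3 (132085292 to 132180304, plus strand), and its values were 0.140 and 2.50 in WT static, 0.296 and 1.05 in WT stretch, 1.15 and 0.514 in CAV1-/- static, and 2.62 and 0.219 in CAV1-/- stretch cultures. The libraries held 2 to 54 reads of it, and the ranges of both genotypes overlapped almost fully. The high animal was replicate 2 in WT and replicate 1 in CAV1-/-. Stretch over static was above 1 in 1 animal of each genotype and below 1 in the other.

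Axin2, the readout of canonical signalling in the group, was low in every culture. It lies on chromosome 11 (108920349 to 108950783, plus strand). Values were 1.26 and 0.565 in WT static, 1.38 and 0.986 in WT stretch, 1.15 and 1.64 in CAV1-/- static, and 1.07 and 2.90 in CAV1-/- stretch cultures, on 7 to 53 reads. The groups overlapped in every comparison between genotypes. Stretch over static was 1.10 and 1.74 in WT and 0.925 and 1.76 in CAV1-/- animals, and all 4 counting intervals held 1. The log2 fold change was 0.34 ± 0.39 for genotype under static conditions (95% interval -0.60 to 1.29) and 0.39 ± 0.39 on stretch (-0.56 to 1.33). Its exons share 209 bases with the antisense gene Gm11670. The promoter window, chr11:108920099-108920348 on the plus strand, is shown because Axin2 is the target gene of the group. It has a GC content of 69.2% and no match to CTTTGAA or CTTTGAT.
Axin2: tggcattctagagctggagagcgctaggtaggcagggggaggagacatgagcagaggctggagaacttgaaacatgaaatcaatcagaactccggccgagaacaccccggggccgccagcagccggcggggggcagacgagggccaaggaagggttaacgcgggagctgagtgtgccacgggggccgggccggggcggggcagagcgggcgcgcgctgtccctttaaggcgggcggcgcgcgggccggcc

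The remaining genes of the pathway were taken from 7 lists and 47 of them had values in the table. By limma 0 of the 47 passed an adjusted p of 0.05 in any of the 6 comparisons, and by edgeR also 0. DESeq2 called 1 gene, Rspo1, in each genotype comparison and 1 gene, Wnt11, for the mean stretch effect. With a replicate block limma called 1 for genotype under static conditions, Rspo1, and 1 for the mean stretch effect, Wnt11. Of all 13665 genes, DESeq2 called 309 and 237 for genotype in static and stretched cultures and 34 for the mean stretch effect. The block called 246 for genotype under static conditions and 201 for the mean stretch effect. An unadjusted p under 0.05 was reached by 4 genes for genotype under static conditions (8.17% of all genes did), 4 for genotype on stretch (6.26%), 2 for stretch in WT (2.27%), 1 for stretch in CAV1-/- (2.09%), 3 for the mean stretch effect (4.73%) and 0 for the interaction (0.483%). Read against those shares, none of these counts sets the 47 genes apart. Of 14 further Wnt ligands, only Wnt2 and Wnt11 had values, and both were higher on stretch in all 4 animals, as 14.5% of all genes were. Wnt11, a ligand of the branches without beta-catenin, was at 5.18 and 5.01 in WT static, 10.3 and 7.21 in WT stretch, 5.11 and 3.08 in CAV1-/- static, and 11.4 and 11.8 in CAV1-/- stretch cultures. Every stretched culture was above every static one, and the share of all genes for which this held was not counted. The mean log2 difference was 1.00 ± 0.19 (limma adjusted p = 0.984, unadjusted p = 0.0017). With the animal as a block the adjusted p was 0.0418, and DESeq2 gave 0.0323, so that the call depended on the model. The response was 0.66 ± 0.26 in WT and 1.33 ± 0.26 in CAV1-/-, and the difference between them was 0.67 (95% interval -0.24 to 1.58). Wnt2 was at 6.72 and 3.88 in WT static, 13.2 and 6.10 in WT stretch, 4.70 and 4.01 in CAV1-/- static, and 8.10 and 7.83 in CAV1-/- stretch cultures, with a mean log2 difference of 0.73 ± 0.27 (limma adjusted p = 0.984, or 0.0504 with the animal as a block).

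Of 10 further secreted inhibitors or modulators on the list, Frzb and Cthrc1 had values. Cthrc1, a secreted glycoprotein that binds Wnt and Frizzled proteins, stood at 5.15 and 1.55 times its static level in the WT animals and at 1.61 and 1.98 times in the CAV1-/- animals. Its mean log2 difference was 1.13 (limma adjusted p = 0.984, or 0.0805 with the animal as a block). Under static conditions it was at 10.5 and 23.0 in WT and at 30.8 and 42.4 in CAV1-/- cultures, with a log2 fold change of 1.16 ± 0.44 (adjusted p = 0.561). Frzb, a relative of Sfrp1 also called Sfrp3, was at 3.21 and 3.08 in WT stretch and at 0.291 and 1.53 in CAV1-/- stretch cultures, a log2 fold change of -1.20 ± 0.43 (adjusted p = 0.701).

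**Figure D5:**
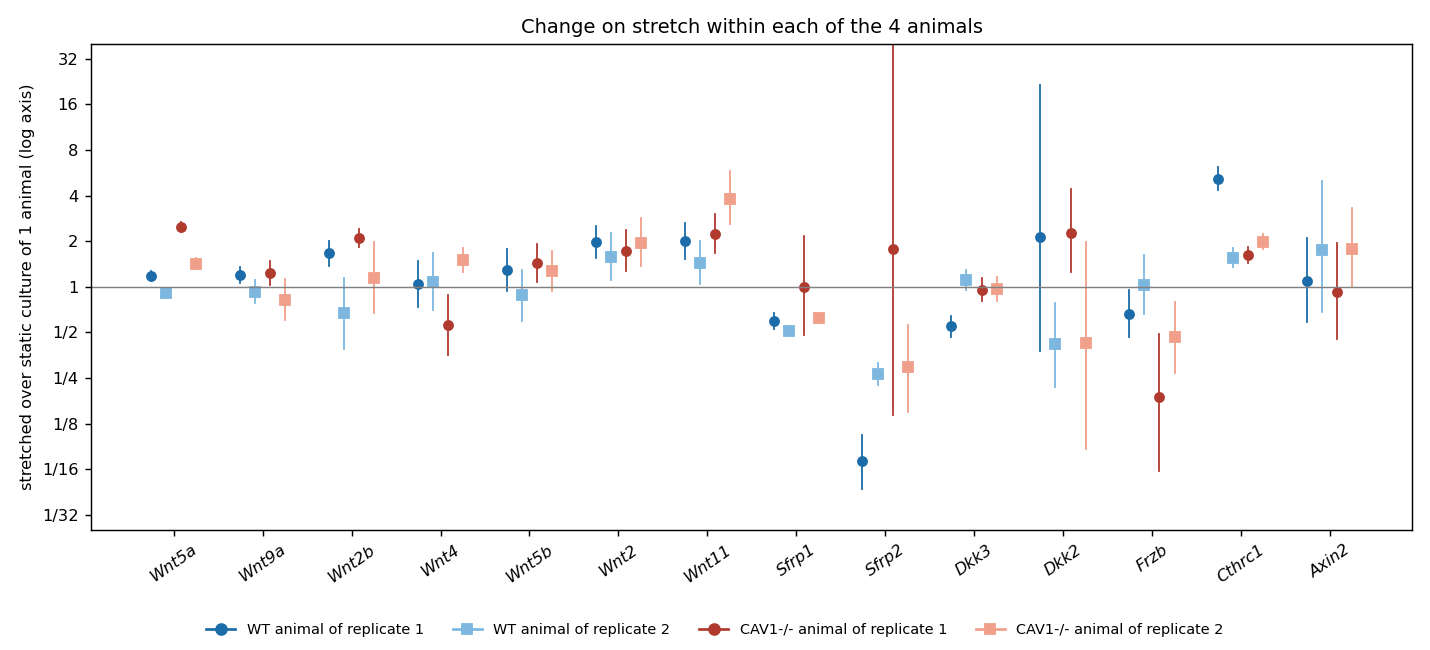
Stretched over static value within each of the 4 animals (vertical axis, log scale) for the 10 genes and for Wnt2, Wnt11, Frzb and Cthrc1; points are ratios and lines their 95% counting intervals, which are clipped at the edges of the plot. Wnt2, Wnt11 and Cthrc1 lie above 1 in all 4 animals, and Sfrp1 lies below 1 in 3 animals and at 0.996 in the other.

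Rspo1, an R-spondin that strengthens canonical signalling by protecting Wnt receptors from turnover, showed the clearest genotype difference among the pathway genes. It was at 24.1 and 20.1 in WT static, 22.0 and 9.24 in WT stretch, 2.23 and 2.98 in CAV1-/- static, and 2.72 and 2.68 in CAV1-/- stretch cultures. All 4 CAV1-/- cultures were below all 4 WT cultures. Within a condition 20.8% (static) and 15.9% (stretch) of all genes lay lower in this way, and the share over both was not counted. The log2 fold change of Rspo1 was -2.68 ± 0.38 under static conditions (limma adjusted p = 0.0945, or 0.0345 with a replicate block). On stretch it was -2.05 ± 0.38 (limma adjusted p = 0.231, or 0.0791 with the block). Neither passed without the block, whereas DESeq2 called both with adjusted p of 1.3e-06 and 0.00013. The mesothelial marker sum was 3115 to 4115 in WT and 924 to 1177 in CAV1-/- cultures, and its part in the level of Rspo1 was not tested. Of the 5 genes with values among 9 R-spondins and their receptors, 5 had a negative log2 fold change between genotypes under static conditions (52.2% of all genes) and 4 on stretch (50.0%). The other gene of that list whose groups did not overlap, Znrf3, which encodes a ubiquitin ligase acting on Wnt receptors, was at -0.25 ± 0.21 under static conditions.

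Among 15 receptors and co-receptors with values, Fzd4 was lower in CAV1-/- cultures at both conditions, with 13.7 and 16.5 against 7.20 and 10.7 in static and 12.2 and 12.6 against 5.64 and 8.44 in stretched cultures. Its log2 fold changes were -0.71 ± 0.26 and -0.76 ± 0.26 (limma adjusted p = 0.544 and 0.662). Fzd5 under static conditions was at -0.67 ± 0.36 and the co-receptor gene Lrp5 on stretch at -0.31 ± 0.17. Of the 15, 12 had a negative log2 fold change on stretch in WT, as 53.2% of all genes did, and 9 in CAV1-/- (50.0% of all genes). Both genes of ligand release had values, Wls at 217 to 387 and Porcn at 1.13 to 5.09 over the 8 libraries.

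The 16 genes of the cytoplasmic and nuclear core all had values and showed small differences. Those whose groups did not overlap by the largest fold were Tcf7l2 (-0.41 ± 0.28) and Gsk3a (0.13 ± 0.17) under static conditions, and Apc (0.43 ± 0.19) and Gsk3b (0.26 ± 0.13) on stretch. Of 8 target genes of beta-catenin with values, Cd44, which encodes a hyaluronan receptor, was higher in CAV1-/- at both conditions, by 0.59 ± 0.22 in static and 0.59 ± 0.22 in stretched cultures (limma adjusted p = 0.551 and 0.719). The list as a whole had a median log2 fold change of 0.0023 between genotypes in static cultures, with 4 genes positive and 4 negative, and of -0.13 in stretched cultures, where the median of all genes was 0.

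The genes whose profile over the 8 libraries was most like that of the 3 most variable members were found by the root mean square difference of mean-centred log2(value + 1) profiles. Nearest to Sfrp1, whose profile spans 7.24 log2 units, were Clu (0.64), Mgp (0.94) and Enpp3 (0.99). Nearest to Sfrp2, with a span of 5.37, were Cyp2s1 (0.39), Fam84a (0.44) and 8430408G22Rik (0.46). Nearest to Wnt2b, with a span of 4.13, were Lce1h (0.29), Myl7 (0.31) and Zdhhc2 (0.42). Cyp2s1 for example was at 43.2 and 77.0 in WT static, 4.54 and 47.6 in WT stretch, 1.24 and 6.99 in CAV1-/- static, and 0.776 and 4.65 in CAV1-/- stretch cultures. The 8 libraries come from 4 animals, so that these likenesses describe 4 animals under 2 conditions and carry no test.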

How the data were processed

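RNAseq of 8 mouse MC libraries (poly A+ RNA, a NEBNext Ultra kit that does not mark strand, single reads) was analysed. The authors trimmed reads with Cutadapt, estimated reads per gene with RSEM on the GRCm38 transcriptome and scaled them with edgeR by TMM. What they deposited is a signal, TMM-normalized CPM per gene and library, for 13687 genes, made by the authors without pooling of cultures. Values of a library are whole multiples of the value of 1 read, and 100% came out as whole reads (tolerance 0.1), which gave each library's total and the 3-read floor. Counting intervals (Clopper-Pearson, 95%) and floors cover counting error only.

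The 13665 genes that reached 1 in 2 or more libraries were tested (22 were removed) by limma (3.58.1, R 4.3.3) on log2(value + 1), 1 mean per group over all 8 libraries with an intensity trend and 4 residual degrees of freedom, called at an adjusted p under 0.05. Alternatives were other pseudocounts and filters, median-of-ratios rescaling, a replicate block, edgeR (4.0.16), DESeq2 (1.42.0) and each culture left out. The labels give the same animal number to the static and stretched culture of a replicate, and same-animal deviations from the group means correlated at r = 0.70 in WT and 0.85 in CAV1-/-. Exon lengths and positions were taken from GENCODE M21. Limma p-values of the main fit rest on the spread between the 2 cultures of a group, pooled over the 4 groups and drawn towards the trend over all genes. With the block they rest on the spread left after the animal or replicate term.

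All 10 genes were to be named, and of the pathway lists every called gene and the 2 with the largest fold in a genotype comparison among those whose groups did not overlap. Wnt2, Wnt11, Cthrc1 on stretch, Wls and Porcn were named after their values were seen. The members and lists were chosen with earlier results of these data known. The code was tested on simulated data.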

Additional observations from a re-analysis of the deposited data

How the results depend on the processing

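The count of 0 of the 10 genes called held in each comparison under every alternative run, with 1 exception. With a replicate block, 1 gene, Sfrp2, was called for genotype under static conditions (limma adjusted p = 0.0251; 0.0251 to 0.567 over the alternatives that keep all cultures). There the block pairs different animals that share only a number, whose deviations correlated at r = 0.52 in static and 0.48 in stretched cultures. Over all genes the block raised the calls from 10 to 246 and from 8 to 110 for genotype and from 0 to 201 for the mean stretch effect, DESeq2 raised those of the genotype comparisons to 309 and 237 and of the mean effect to 34, and edgeR called 2 and 6 for genotype. For stretch alone the block and DESeq2 called 0 to 7. Requiring a mean of at least 5 left out Dkk2 and Axin2.

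Of the log2 fold changes of single genes, 15 turned sign under an alternative that keeps all cultures and 452 kept sign and call. With edgeR the values were -0.0013 for Wnt5a on stretch in WT, 0.41 for Wnt4 on stretch in CAV1-/-, 0.43 and 0.66 for Sfrp1 between genotypes in static and stretched cultures, and 0.34 for Wnt4 and 0.0055 for Wnt9a in the interaction. With DESeq2 they were 0.41, 0.44 and 0.67 for the first Wnt4 and both Sfrp1 values, and 0.32 for Wnt4 in the interaction. A pseudocount of 5 gave 0.088 for Wnt4 on stretch in CAV1-/- and 0.054 in the interaction, and one of 0.1 gave 0.15 for Dkk2 between genotypes in static cultures, -0.076 for Axin2 in the interaction and -0.017 for Wnt4 in the mean stretch effect. The cause was not tested.

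Leaving out 1 culture removes 1 member of a pair, so that differences between animals enter the stretch comparisons by construction, and 86 of 320 values then turned sign. For stretch in WT the ranges were -1.28 to 1.57 for Wnt2b, -0.090 to 0.22 for Wnt4, -0.47 to 0.57 for Wnt5a, -0.16 to 0.31 for Wnt5b, -0.41 to 0.55 for Wnt9a, -1.98 to 0.30 for Sfrp1, -1.10 to 0.51 for Dkk2, -0.76 to 0.082 for Dkk3 and -0.055 to 0.47 for Axin2. For stretch in CAV1-/- they were -1.29 to 2.46 for Wnt2b, -1.57 to 1.52 for Wnt4, -0.69 to 0.74 for Wnt9a, -3.96 to 3.27 for Sfrp1, -1.44 to 0.44 for Sfrp2, -0.57 to 1.00 for Dkk2, -0.12 to 0.015 for Dkk3 and -0.21 to 0.71 for Axin2. Between genotypes in static cultures they were -1.02 to 1.81 for Wnt2b, -0.022 to 1.91 for Wnt4, -0.80 to 0.23 for Wnt5a, -5.40 to 1.83 for Sfrp1, -4.81 to -2.93 for Sfrp2, which kept its sign, and -0.96 to 0.66 for Dkk2. In stretched cultures they were -1.04 to 2.70 for Wnt2b, -0.69 to 2.40 for Wnt4, -4.57 to 1.98 for Sfrp1, -3.11 to -0.70 for Sfrp2, which kept its sign, -0.42 to 1.15 for Dkk2, -0.48 to 0.37 for Dkk3 and -0.073 to 0.84 for Axin2. For the interaction they were -1.43 to 2.31 for Wnt2b, -1.63 to 1.46 for Wnt4, -0.77 to 0.66 for Wnt9a, -3.13 to 4.11 for Sfrp1, -0.30 to 1.32 for Dkk2, -0.13 to 0.71 for Dkk3 and -0.42 to 0.50 for Axin2. For the mean stretch effect they were -0.57 to 1.30 for Wnt2b, -0.75 to 0.79 for Wnt4, -0.31 to 0.40 for Wnt9a, -2.40 to 1.22 for Sfrp1, -0.44 to 0.37 for Dkk2 and -0.41 to 0.015 for Dkk3. A lone culture is there assumed to vary like the other groups. The depth limits Sfrp2 in CAV1-/-, Dkk2 and Axin2, which held as few as 1, 2 and 7 reads in a library.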
